A study of Mus musculus with 28 samples.

Results

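The cluster of miR-465, miR-743 and miR-880 is a set of X-linked mouse microRNAs, short RNAs that pair with mRNAs mainly through their seed, the bases just after the 5′ end. It lies in a fast-evolving stretch of the X chromosome between Slitrk2 and Fmr1, and its members are known from testis, where germ cells and Sertoli cells express many of them. Each hairpin precursor is cut into a 5p and a 3p arm, and usually one arm is kept while the other is degraded. The rows described here were all miRNA rows named miR-201, miR-463, miR-465a to miR-465d, miR-470, miR-471, miR-547, miR-741, miR-742, miR-743a, miR-743b, miR-871, miR-878, miR-880, miR-881, miR-883a and miR-883b, with any copy number or arm. They came to 46 distinct rows over 3 count tables: 45 of the 1127 miRNA rows of the WT table, 36 of 899 in the Nrf2-/- table and 32 of 819 in the table of liver KO and flox libraries. Of the 46 rows, 33 carried an arm name and 13 only a precursor name.

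Small RNA from mouse sperm had been sequenced in 28 libraries, from RNA extracted with Trizol and prepared with a Qiaseq small RNA kit. Wild type (WT) mice on alcohol gave 4 low-dose, 2 medium-dose and 2 high-dose libraries, and 4 WT control libraries came from mice without alcohol. Mice lacking Nrf2 (Nrf2 -/-, written Nrf2-/- here), the transcription factor that switches on antioxidant genes, gave 4 ethanol libraries and 4 controls without alcohol. The last 8 libraries were 4 from mice with a floxed Nrf2 gene and Albumin-Cre, which deletes it in hepatocytes (Nrf2 LKO, called liver KO here), and 4 flox controls; no alcohol was named for either. The sources used here give neither the amounts of alcohol nor ages nor the number of animals behind a library. The p-values therefore measure the spread between these samples, part of which may be technical. The library labelled medium 1 has a column name that begins with the letter used for the high dose, and its label was followed.

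Total counts ran from 1993933 to 11119711 in the WT libraries, from 3922109 to 6448390 in the Nrf2-/- libraries and from 2567463 to 4394714 in the liver KO and flox libraries. miRNA rows held 227577 to 1619742 of them, 844062 to 2744712 and 371267 to 857599 in the same order. WT control 1 had 4.26% of its counts in miRNA rows and 75.8% in structural RNA rows. The other WT libraries had 11.4% to 21.1% and 22.5% to 31.8%. All 8 protamine and other sperm and spermatid transcripts of a marker list were detected in each of the 3 tables. Here and for the other lists, detected means a count above 0 over the libraries of a table together. Their summed exon level was 139 to 825 CPM per library (CPM, here relative to all counts). Of 10 epididymis epithelium transcripts 8 or 9 were detected, with a summed level of 34.1 to 1826 CPM, and Cst11 was at 0 in all 3 tables. Of 10 spermatocyte and spermatogonium transcripts all 10 were detected, at 10.7 to 56.3 CPM. Sertoli transcripts came to 7.90 to 257 CPM with 4 or 5 of 6 detected and Rhox5 at 0, and that list shares Clu with the epididymis list. In such bulk samples fewer cells of a type and less RNA per cell cannot be told apart.

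In the RefSeq annotation of GRCm38.p6 the rows belonged to 21 hairpins, all on the minus strand. Of these, 19 lay within 62.4 kb, at chrX:66776757-66839125, with Mir743 (chrX:66776757-66776818) at one end and Mir465 (chrX:66839052-66839125), the precursor of miR-465a, at the other. The 6 miR-465 hairpins followed each other over 16.5 kb of that block. Mir201 (chrX:67988096-67988161) and Mir547 (chrX:67988374-67988451) lay 1149 kb further along the chromosome. The sources used here do not name the build behind the deposited counts, and rows were matched by miRNA name only.

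The annotated mature arms came to 38 names with 36 distinct sequences and 30 seeds, and 33 of the names had a row. The sequences below are those that decide which rows can share reads, and those of the arms with the highest levels; capitals mark the seed, bases 2 to 8 counted from the 5′ end, and all are RefSeq sequences of GRCm38.p6.
miR-465a-5p: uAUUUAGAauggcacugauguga
miR-465b-5p: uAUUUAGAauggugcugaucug
miR-465c-5p: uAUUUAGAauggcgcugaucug
miR-465a-3p: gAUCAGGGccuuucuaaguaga
miR-743a-3p: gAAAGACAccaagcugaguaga
miR-743b-3p: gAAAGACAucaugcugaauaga
miR-742-3p: gAAAGCCAccaugcuggguaaa
miR-741-3p: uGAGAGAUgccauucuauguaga
miR-883a-3p: uAACUGCAacagcucucaguau
miR-883b-3p: uAACUGCAacaucucucaguau
miR-878-3p: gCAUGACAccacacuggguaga
miR-743a-5p: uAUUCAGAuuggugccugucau
miR-871-5p: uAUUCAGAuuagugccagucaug
miR-871-3p: uGACUGGCaccauucuggauaau
miR-881-3p: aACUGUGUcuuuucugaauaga
The miR-465a-3p sequence is also that of miR-465b-3p and miR-465c-3p, so no read can be assigned to one of those 3 rows by its sequence. Against miR-465c-5p, counting positions from 1 at the 5′ end, miR-465b-5p differs by C13U and miR-465a-5p by G14A and C20G, outside the seed that all of them share. miR-743b-3p differs from miR-743a-3p by C9U, A12U and G18A and keeps its seed, while miR-742-3p differs from miR-743a-3p by A6C inside the seed and by A12U, A17G and G21A. miR-883b-3p differs from miR-883a-3p by G12U alone. miR-743a-5p and miR-871-5p, from hairpins 33.7 kb apart, share a seed as well.

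Because of these near-identical arms, the rows of miR-465a to miR-465d were summed per arm, which left 36 members among WT libraries, 32 among Nrf2-/- libraries and 28 among liver KO and flox libraries. For miR-465-3p the summing counts reads more than once. In the liver KO and flox table the rows of miR-465a-3p and miR-465b-3p held the same count in 8 of 8 libraries, and that of miR-465c-3p differed from them by at most 0.459%, so the sum there is close to 3 times 1 row. In the WT table the same 3 rows differed from each other by up to 73.8% where they were above 0. A level of miR-465-3p is therefore not comparable with other members or between tables.

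Some members had a count of 0 in libraries where over 50 reads were expected from the other libraries of the table, and such gaps were treated as missing. There were 33 of them in the WT table over 10 rows, 3 in the Nrf2-/- table, all of miR-465c-5p, and none among the rows of the liver KO and flox table. The 3 miR-465-3p rows were at 0 together in 8 of 12 WT libraries (low 1 and 3, both medium, both high, and controls 2 and 4), where 2520 to 15276 reads were expected. miR-465-3p thus had values in 4 WT libraries. The 36 member rows of the Nrf2-/- table used here include no miR-465-3p row, so that arm was not analysed in the Nrf2-/- set. The row named mir-881 had a gap in WT control 3, and its single read in WT control 4 (0.463 CPM) missed the definition of a gap although the other 10 WT libraries held 891 to 1749.8 CPM.

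Levels below are CPM of miRNA counts scaled with TMM factors, which correct the library size for a few miRNAs that take many of the reads; each set was scaled by itself. Mean levels of WT members ran from 0.151 to 80447 CPM, and neighbouring hairpins differed widely, as the plot of levels along the block shows. In WT libraries 6 members averaged 1000 CPM or more and 13 averaged under 10 CPM. In Nrf2-/- libraries 2 averaged 1000 CPM or more and 20 under 10 CPM, against 7 and 5 in the liver KO and flox libraries. With miR-465-3p left aside, miR-743a-3p and miR-741-3p were among the 4 members with the highest means in each of the 3 sets. The row mir-881 was next after miR-743a-3p in the Nrf2-/- set, at a mean of 1948 CPM, where miR-743b-3p averaged 127 CPM, against 3927 CPM in the WT set and 6209.7 CPM in the liver KO and flox set. The outlying miR-201 and miR-547 were near the floor: no library held more than 3.03 CPM of miR-201-5p or 44.3 CPM of miR-547-3p.

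**Figure D1:**
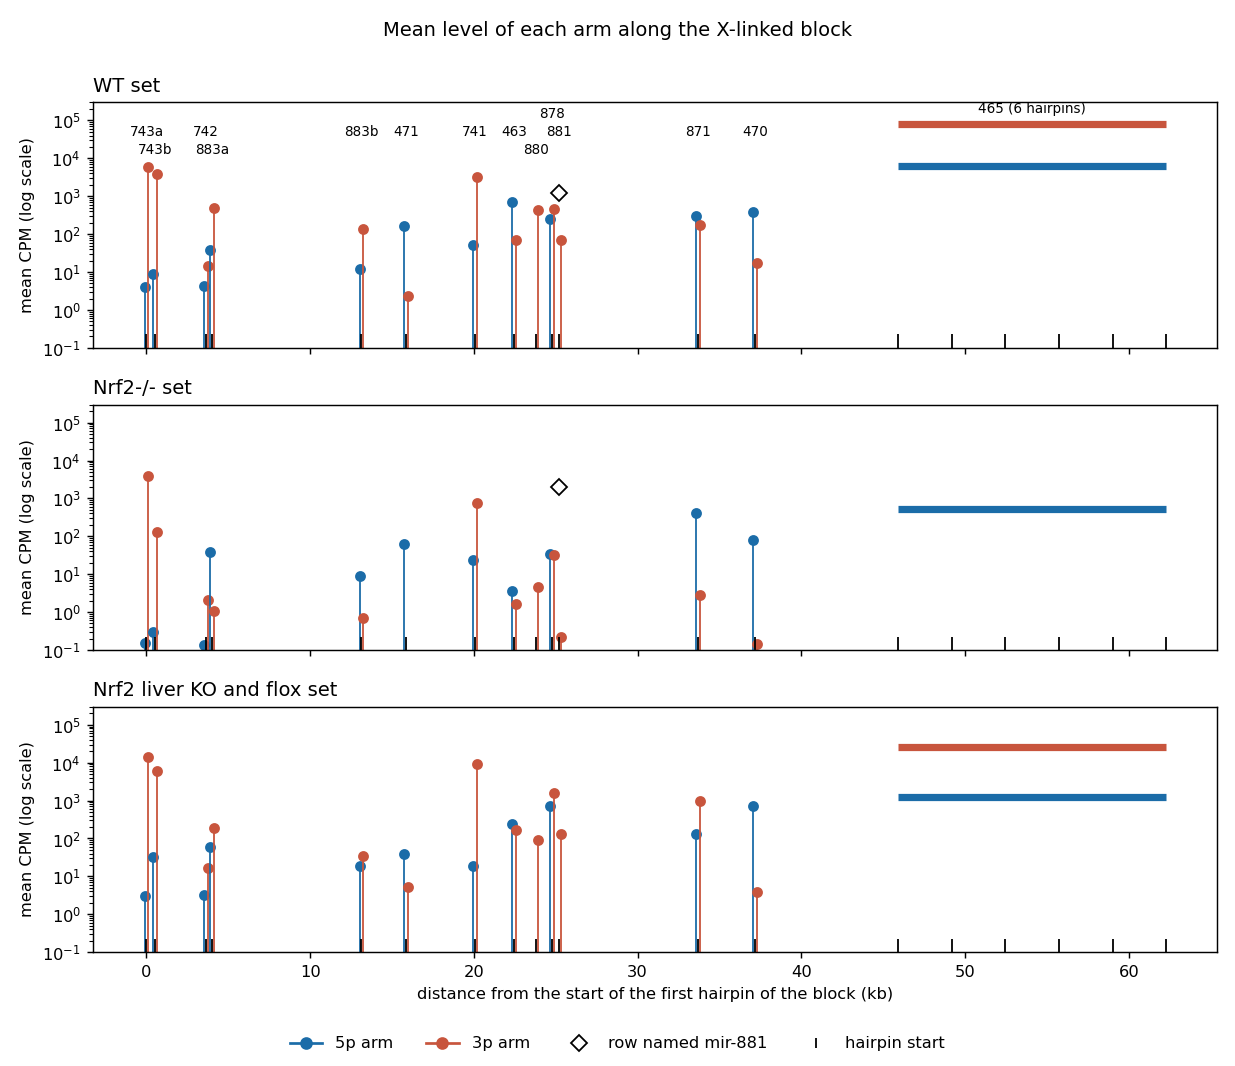
Mean CPM (log scale) of the 5p and 3p arm of each hairpin against its distance in kb from the start of the first hairpin of the block, in the 3 sets of libraries. Bars span the 6 miR-465 hairpins, whose arms were summed, and the diamond is the row named mir-881. miR-743a-3p and miR-741-3p stood high in all 3 sets, and miR-743b-3p in the WT and the liver KO and flox set; miR-465-3p was not analysed in the Nrf2-/- set.

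In WT sperm, miR-465-3p, read in 4 libraries only, stood at 102489 and 97270.4 CPM in low-dose libraries 2 and 4, against 69084 and 52947 in controls 1 and 3. The other arm, miR-465-5p, measured 9191, 7841, 6783 and 5802 CPM at the low dose, 5678 and 7066 at the medium dose and 4445 and 7624 at the high dose, against 4632, 6186 and 4293 in WT controls, with control 3 missing. miR-743a-3p, from the hairpin at the end of the block, stood at 8332, 7376, 5580.1 and 6060.3 CPM at the low dose, 4259 and 9637 at the medium dose and 3798 and 6168 at the high dose, against 5409, 5746, 3702 and 4454 in WT controls. The lowest low-dose library thus lay within the range of the controls, and the medium and high-dose pairs each had 1 library within that range and 1 above it. Its seed-sharing neighbour miR-743b-3p measured 5619, 3722, 4857 and 4285 CPM at the low dose, 3537 and 3908 at the medium dose and 2458 and 3964 at the high dose, against 5005, 4186, 2498 and 3086 in WT controls. For miR-741-3p the values were 4179, 5172, 3681 and 2885 CPM at the low dose, 2796 and 3256 at the medium dose and 1625 and 5087 at the high dose, against 2019, 2391, 2468 and 2656 in WT controls. Here all 4 low-dose libraries were above all 4 controls, and high 1 was the lowest of the 12. This separation depends on the scaling, as control 4 had the highest TMM factor, 2.11. Control 4 held 5738 reads of miR-741-3p among 1024039 miRNA counts, against 5819 among 1247729 in low 2. Without TMM factors control 4 was above all 4 low-dose libraries. How many of all 334 miRNAs tested separated in this way was not counted. In the edgeR test described below, 12.9% of them had an unadjusted p under 0.05 at the low dose, and 0 cluster members did. The row mir-881 held 1595, 1463, 1286 and 1169 CPM at the low dose, 1474 and 1749.8 at the medium dose and 1081 and 1139 at the high dose, against 891, 1431 and 0.463 in controls 1, 2 and 4.

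The next members of WT sperm were lower. miR-463-5p stood at 904, 1037, 899 and 413 CPM at the low dose, 791 and 888 at the medium dose and 401 and 599.9 at the high dose, against 489, 561, 823 and 692 in WT controls. miR-883a-3p stood at 670.2, 564, 502 and 338 CPM at the low dose, 414 and 379 at the medium dose and 340.4 and 499.6 at the high dose, against 389, 617, 594 and 544 in WT controls. For both, the 8 alcohol libraries overlapped the controls. miR-878-3p ran at 789.8, 663, 489 and 577 CPM at the low dose, 282 and 759 at the medium dose and 314 and 567 at the high dose, against 108, 519, 123 and 417 in WT controls, so that controls 1 and 3 were the lowest libraries of the set. miR-880-3p, without control 2, ran at 486, 339, 601 and 287 CPM at the low dose, 419.7 and 578 at the medium dose and 246 and 499.6 at the high dose, against 459, 327 and 408 in WT controls. The remaining 26 members of the WT table averaged from 0.151 to 381 CPM.

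In Nrf2-/- sperm, controls 3 and 4 stood apart for most members. miR-743a-3p measured 1439, 962, 2215 and 1989 CPM in Nrf2-/- ethanol libraries, against 703, 1041, 9723 and 14002 in Nrf2-/- controls, so controls 3 and 4 were far above the other 6 libraries and controls 1 and 2 were among the lowest. The row mir-881 measured 1047, 825, 2069 and 1881 CPM in Nrf2-/- ethanol libraries, against 627, 1039, 2977 and 5121 in Nrf2-/- controls. For miR-741-3p the values were 459, 406, 948 and 577 CPM in Nrf2-/- ethanol libraries, against 379.6, 365, 863 and 2099 in Nrf2-/- controls. miR-465-5p, missing in 3 libraries, held 282, 386 and 487 CPM in ethanol libraries 1 to 3, against 818 and 721 in controls 3 and 4. miR-871-5p held 283, 269.7, 382 and 274 CPM in Nrf2-/- ethanol libraries, against 244, 250.0, 829.7 and 685 in Nrf2-/- controls. miR-743b-3p, at 112, 73.8, 137 and 55.2 CPM in Nrf2-/- ethanol libraries, against 73.3, 75.3, 303 and 183 in Nrf2-/- controls, was far below miR-743a-3p in all 8 libraries. For each of these members the highest library was control 3 or control 4. Controls 1 and 2 were below all ethanol libraries for miR-741-3p and miR-871-5p, and below or within their range for miR-743a-3p, mir-881 and miR-743b-3p.

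Lower members of the Nrf2-/- table showed the same split less evenly. miR-470-5p measured 39.1, 63.9, 39.9 and 75.3 CPM in Nrf2-/- ethanol libraries, against 49.7, 53.3, 123 and 196 in Nrf2-/- controls. miR-471-5p measured 65.1, 50.5, 39.3 and 29.3 CPM in Nrf2-/- ethanol libraries, against 65.0, 79.1, 65.6 and 104 in Nrf2-/- controls, so 3 of 4 controls were above all ethanol libraries and control 1 was just under ethanol 1. miR-883a-5p measured 35.1, 25.9, 34.9 and 25.9 CPM in Nrf2-/- ethanol libraries, against 31.1, 30.6, 52.9 and 69.0 in Nrf2-/- controls. miR-878-5p measured 32.2, 30.4, 26.8 and 20.9 CPM in Nrf2-/- ethanol libraries, against 30.4, 25.1, 52.9 and 61.9 in Nrf2-/- controls. Controls 3 and 4 were again the 2 highest libraries for miR-470-5p, miR-883a-5p and miR-878-5p. The other 22 members averaged at most 32.4 CPM.

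In the liver KO and flox set, miR-465-3p stood at 42842, 43399.9, 21014 and 18093 CPM in liver KO libraries, against 17812, 25819.8, 17685 and 17245 in flox libraries. Liver KO libraries 1 and 2 were the highest of the 8, and libraries 3 and 4 lay within the range of the flox libraries. For miR-743a-3p liver KO libraries 1 and 2 were again the highest, at 20654, 19637, 12820.4 and 12569.9 CPM in liver KO libraries, against 12101, 14870.5, 11695 and 11205 in flox libraries. Liver KO 1 and 2 also had the lowest TMM factors of the set, 0.742 and 0.81. Without TMM factors they held 15327 and 15905 CPM of miR-743a-3p, against 14301 CPM in flox 2, the highest flox library. miR-741-3p held 11376, 6867, 8884 and 11269 CPM in liver KO libraries, against 7772, 10308, 9202 and 9251 in flox libraries, and miR-743b-3p held 6465, 5334, 5334 and 5726 CPM in liver KO libraries, against 8442, 6431, 5530.2 and 6416 in flox libraries. Neither of these separated the groups. miR-878-3p held 2495, 1543, 1443 and 1944 CPM in liver KO libraries, against 872, 1849, 1096 and 1283 in flox libraries, and miR-465-5p 1837, 1008, 1065 and 1597 CPM in liver KO libraries, against 1059.8, 1548, 843 and 1125 in flox libraries. For miR-871-3p the values were 1548, 1227, 913 and 1300.3 CPM in liver KO libraries, against 552, 1088, 782 and 611 in flox libraries. The groups overlapped for all 3.

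Among the remaining leading members of that set, miR-470-5p measured 954, 1174, 582 and 731 CPM in liver KO libraries, against 637, 849, 421 and 433 in flox libraries. miR-878-5p measured 668, 446, 632 and 1055 CPM in liver KO libraries, against 692, 805, 578 and 861 in flox libraries. miR-463-5p measured 238, 33.3, 282 and 363 CPM in liver KO libraries, against 258, 266, 145 and 369.6 in flox libraries, and liver KO 2 was the lowest library by far. The other 18 members averaged from 0.507 to 187 CPM.

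**Figure D2:**
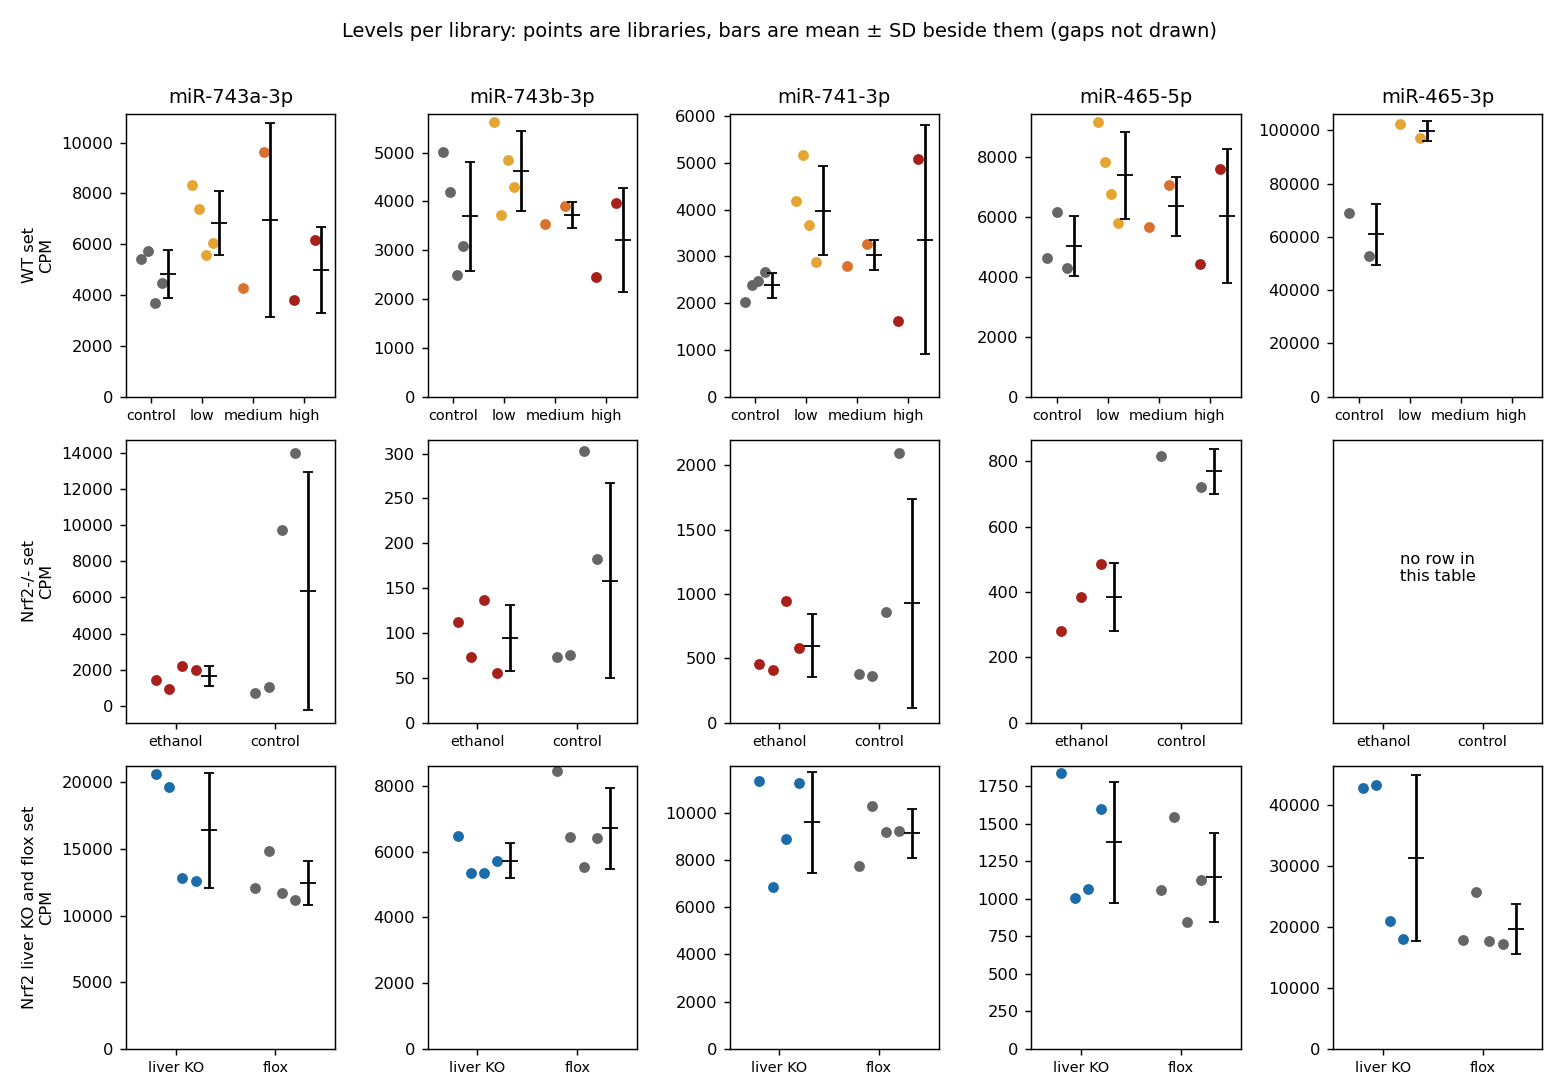
CPM of 5 members in every library (points), with the mean ± SD of each group beside them, for WT, Nrf2-/- and liver KO and flox libraries. Nrf2-/- controls 3 and 4 and liver KO libraries 1 and 2 stood above the rest of their sets for miR-743a-3p, and libraries with a gap have no point.

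Members were tested within the fit of all miRNAs, with edgeR's quasi-likelihood test and Benjamini-Hochberg adjustment over every miRNA tested. Members with gaps took their value from a repeat of that fit without the libraries of the gap. None of the tested members passed an adjusted p of 0.05 in any of the 5 comparisons, and neither did any other miRNA in the fits over all libraries of a set. The members tested had passed a filter on low counts: 26 of 36 WT members, 15 of 32 Nrf2-/- members and 21 of 28 liver KO and flox members.

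At the low dose in WT sperm, miR-743a-3p, miR-741-3p and both miR-465 arms lay above the controls on average, by amounts near the spread between libraries. miR-743b-3p overlapped the controls, and its log2 change ran from -0.07, without TMM factors, to 0.51 over the alternatives. Relative to controls, the log2 change by edgeR was 0.50 ± 0.36 (SE; unadjusted p = 0.197, adjusted p = 0.646) for miR-743a-3p and 0.74 ± 0.39 (SE; unadjusted p = 0.0868, adjusted p = 0.431) for miR-741-3p, adjusted by Benjamini-Hochberg. It was 0.82 ± 0.40 (SE; unadjusted p = 0.106, adjusted p = 0.394) for miR-465-3p in the edgeR fit of its 4 libraries, and 0.42 ± 0.36 (SE; unadjusted p = 0.268, adjusted p = 0.695) for miR-465-5p without control 3. The member with the highest change was miR-878-3p, at 1.11 ± 0.58 (SE; unadjusted p = 0.0858, adjusted p = 0.431) by edgeR. It ran from 0.34, without controls 1 and 3 (an omission chosen after the data were seen), to 1.55, without control 2, over the alternatives. Over the 26 members tested the median log2 change was 0.12, and 15 were higher and 11 lower, while over all 334 miRNAs tested it was -0.13 and 55.1% were lower. edgeR called 0 members and 0% of all miRNAs. At an unadjusted p under 0.05 the counts were 0 members and 12.9% of all miRNAs, and DESeq2 called 0 members and 6.69% of all. The count of higher members also rests on single controls: it was 13 of 26 (median -0.02) without WT control 3 and 12 of 24 (median 0.0053) without WT control 4, against 17 of 26 (median 0.25) without WT control 2. Without WT controls 1 and 3 it was 10 of 25, with a median of -0.14. The directions depend on the scaling too. The mean log2 TMM factor of the low-dose libraries minus that of the controls was -0.37. Without TMM factors the median of the members becomes -0.32 with 19 of 26 lower. WT control 4 had the highest TMM factor, 2.11.

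The 28 members of the WT table without a gap were also summed per library. The sum came to 21487, 19562, 17275 and 15574 CPM at the low dose, 13181 and 19813 at the medium dose and 9780.2 and 17887 at the high dose, against 13993, 15302, 11247 and 13246 in controls. The means were 18474 ± 2589 CPM at the low dose and 13447 ± 1695 CPM in controls (SD, n = 4 each), and the lowest low-dose library was just above the highest control. The difference of the means of log2 values was 0.46, against a pooled SD of 0.20 between libraries, and no test was made on a sum of chosen members. Without TMM factors the sums were 17635, 17640.0, 16843 and 13676 CPM at the low dose and 10940.5, 15695, 11653 and 27948 in controls, and the groups overlapped. The summed epididymis exon level moved the other way, at 359, 146, 401 and 216 CPM at the low dose and 224, 393, 615 and 545 in controls. Red blood cell transcripts, with 5 of 5 detected, were at 62.0, 63.0, 39.1 and 34.7 CPM at the low dose and 1.8, 3.37, 4.01 and 13.0 in controls. The part of either in the result was not tested.

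At the medium and high doses, members lay across the range of the controls. The edgeR log2 change was 0.29 ± 0.36 (SE; unadjusted p = 0.45, adjusted p = 0.921) for miR-743a-3p and 0.42 ± 0.39 (SE; unadjusted p = 0.306, adjusted p = 0.805) for miR-741-3p relative to controls, and 0.29 ± 0.36 (SE; unadjusted p = 0.44, adjusted p = 0.884) for miR-465-5p. Without TMM factors the sign of miR-743a-3p and miR-465-5p turns, at -0.07 and -0.08. These libraries are set against the same 4 controls as the low dose. For miR-743b-3p it was -0.10 ± 0.34 (SE; unadjusted p = 0.784, adjusted p = 0.987), by edgeR as well. The lowest unadjusted p belonged to miR-743a-5p, the minor arm of its hairpin (unadjusted p = 0.0177, adjusted p = 0.665 by edgeR). Both high-dose libraries held 0 reads of it, so its fitted change depends on the prior count and is not given. The medium-dose libraries lay within the range of the controls. That arm held 5.27, 1.78, 9.38 and 5.8 CPM at the low dose, 5.41 and 3.95 at the medium dose and 0 and 0 at the high dose, against 0, 5.34, 4.24 and 7.87 in WT controls, which rests on at most 17 reads in any of the 12 libraries. Of 25 members tested 12 were higher and 13 lower, with a median of -0.03, while the median over all 334 miRNAs was -0.28 and 63.5% were lower. edgeR called 0 members and 0% of all miRNAs, 1 member and 6.29% of all at an unadjusted p under 0.05, and DESeq2 called 0 members and 3.04% of all. The split turned on single libraries: 19 were higher and 6 lower (median 0.21) without WT control 2, and 9 higher and 16 lower (median -0.05) without WT control 3. Without WT controls 1 and 3 the split was 9 and 16 with a median of -0.27. Without low 3, which enters this fit only through the shared spread, filter and scaling, 16 were higher and 8 lower (median 0.12). Epididymis transcripts were at 527 and 96.3 CPM in the medium-dose and 1826 and 292 CPM in the high-dose libraries, against 224, 393, 615 and 545 CPM in controls, and high 1, with the highest level, was the lowest alcohol library for miR-743a-3p, miR-743b-3p, miR-741-3p and the summed level. The part of epididymis RNA in this was not tested. The summed level differed by 0.13 (log2, pooled SD 0.35), and with 2 libraries a dose the doses cannot be ordered beyond their spread.

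In Nrf2-/- sperm every tested member was lower after ethanol than in controls, and no member passed the test. The edgeR log2 change was -1.95 ± 0.94 (SE; unadjusted p = 0.0681, adjusted p = 1.00) for miR-743a-3p, -0.63 ± 0.69 (SE; unadjusted p = 0.382, adjusted p = 1.00) for miR-741-3p and -0.75 ± 0.72 (SE; unadjusted p = 0.327, adjusted p = 1.00) for mir-881. It was -0.73 ± 0.58 (SE; unadjusted p = 0.239, adjusted p = 1.00) for miR-871-5p, again by edgeR over all 8 libraries. All 15 members tested had a log2 change below 0, with a median of -0.74 and a range of -1.95 to -0.20, while 52.3% of all 235 miRNAs did and their median was -0.07. edgeR called 0 members and 0% of all miRNAs; at an unadjusted p under 0.05 it was 1 member and 1.28% of all in the fit of 8 libraries, and DESeq2 called 0% there. The 1 member was miR-465-5p, at -0.97 ± 0.37 (SE; unadjusted p = 0.0472, adjusted p = 0.142) by edgeR in a fit without its gap libraries, controls 1 and 2 and ethanol 4. In that fit 15.3% of 248 miRNAs passed the adjusted threshold and 34.3% an unadjusted p under 0.05, and DESeq2 called miR-465-5p (adjusted p = 0.0058) with 39.9% of all.

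The direction in Nrf2-/- sperm rested on 2 libraries. The sum of the 31 members without a gap was 3584, 2788, 5949 and 4967 CPM in ethanol libraries, against 2291, 3023, 15179 and 22613 in controls 1 to 4. Ethanol libraries averaged 4322 ± 1409.8 CPM and controls 10777 ± 9859 CPM (SD, n = 4 each), a log2 difference of -0.75 with a pooled SD of 1.22. Without control 4 alone that difference is -0.19, and without control 1 alone -1.29. When controls 3 and 4 were both left out, an omission chosen after the data were seen, 5 of 14 members were lower and 9 higher, the median log2 change was 0.12, and miR-743a-3p stood at 1.01. When controls 1 and 2 were left out, all 15 were lower with a median of -1.33, and edgeR called miR-743a-3p. The share of all miRNAs called in that fit was not counted, so the call is not read as particular to the cluster.

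The same libraries stood apart in other RNA. miRNA rows held 21.5% and 22.7% of all counts in controls 3 and 4, against 36.6% to 54.5% in the other Nrf2-/- libraries. piRNA cluster rows held 24.7% and 25.7% there, against 9.17% to 17.3% in the others. The part of these shares in the result was not tested. Summed epididymis transcripts were at 329.7, 264, 184 and 429 CPM in ethanol libraries 1 to 4 and at 1555, 1307, 50.99 and 34.1 in controls 1 to 4, so controls 1 and 2 had the most and controls 3 and 4 the least. Sperm and spermatid transcripts ran the other way, at 187, 243, 212.97 and 254 CPM in ethanol libraries and 139, 181, 652 and 825 in controls. With the log2 epididymis level as a covariate, added after the data were seen, 14 of 15 members were lower with a median of -0.47, and 0 were called. The part of these cells in the result was not tested. The miR-34 and miR-449 family, germ cell miRNAs of other chromosomes, was also lower in 5 of 5 tested members, with a median of -1.87, and miR-34c-3p had the lowest edgeR p of it (-1.87, unadjusted p = 0.038, adjusted p = 1). Other X-linked miRNAs, from outside the cluster, were lower in 6 of 11 with a median of -0.11, and 0 of them passed. Among these, miR-98-5p had the lowest unadjusted p, 0.451 by edgeR (adjusted p = 1), with a log2 change of 0.69.

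**Figure D3:**
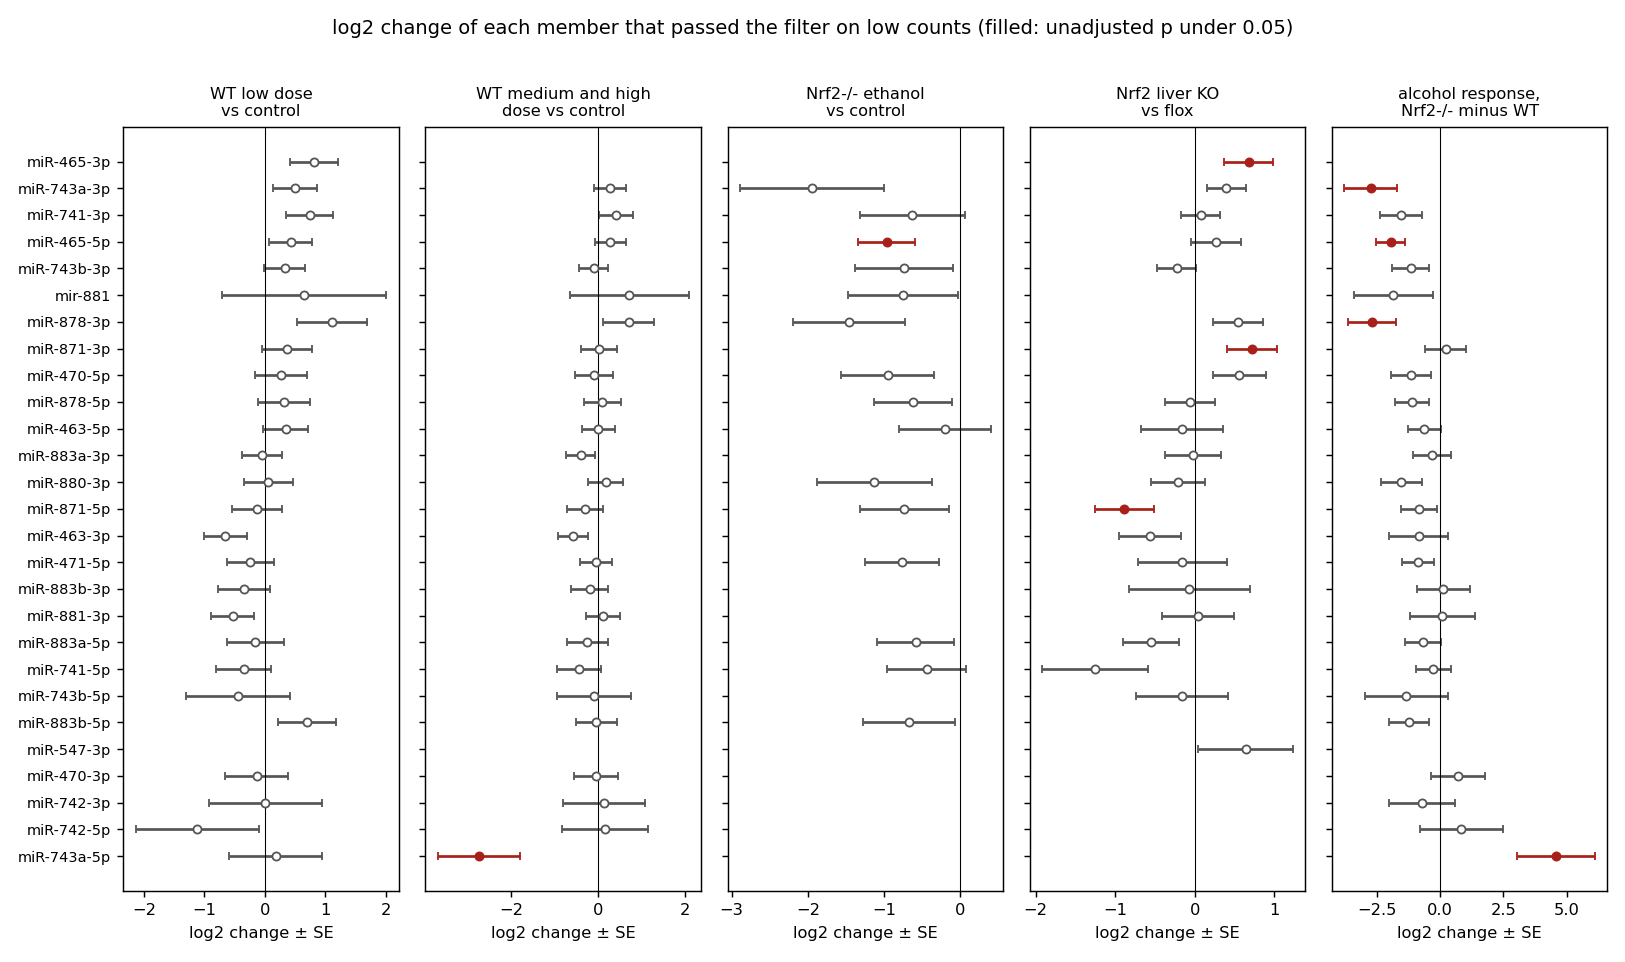
log2 change ± SE of each member that passed the filter, by comparison, from the member with the highest mean level (top) to the lowest. Filled points have an unadjusted p under 0.05, and none passed the adjusted threshold. The interaction value of miR-743a-5p rests on Nrf2-/- controls at 0 reads. Its value at the medium and high doses rests on high-dose libraries at 0 reads. All 15 points of the Nrf2-/- comparison lie below 0, and those of the other within-set comparisons lie on both sides.

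In liver KO sperm no member passed the test, and members lay on both sides of flox sperm. By edgeR the log2 change was 0.67 ± 0.31 (SE; unadjusted p = 0.0499, adjusted p = 0.382) for miR-465-3p, 0.40 ± 0.25 (SE; unadjusted p = 0.136, adjusted p = 0.491) for miR-743a-3p and 0.07 ± 0.25 (SE; unadjusted p = 0.777, adjusted p = 0.933) for miR-741-3p, which is at -0.12 without TMM factors. For miR-743b-3p it was -0.23 ± 0.24 (SE; unadjusted p = 0.359, adjusted p = 0.705) and for miR-878-3p 0.54 ± 0.32 (SE; unadjusted p = 0.112, adjusted p = 0.49), also by edgeR. The arms of miR-871 went opposite ways, with 0.72 ± 0.31 (SE; unadjusted p = 0.0372, adjusted p = 0.37) for miR-871-3p and -0.89 ± 0.37 (SE; unadjusted p = 0.0319, adjusted p = 0.357) for miR-871-5p in the edgeR fit. Of 21 members tested 9 were higher and 12 lower, with a median of -0.07, against 0.02 over all 291 miRNAs, of which 48.5% were lower. Single libraries turn this split: 16 were higher and 7 lower (median 0.17) without liver KO 2 and 15 higher and 7 lower (median 0.11) without flox 4, against 7 higher and 15 lower (median -0.24) without liver KO 4. edgeR called 0 members and 0% of all miRNAs, and DESeq2 likewise 0 and 0%. An unadjusted p under 0.05 was reached by 3 members and by 13.1% of all miRNAs.

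The sum over all 28 members, which holds the miR-465-3p reads under each of their rows, was 89830.1, 81176, 53792 and 55979 CPM in liver KO libraries, against 51371, 64893, 48719 and 50132 in flox libraries. Liver KO averaged 70195 ± 18049 CPM and flox 53778 ± 7488 CPM (SD, n = 4 each), a log2 difference of 0.36 with a pooled SD of 0.30. Without liver KO libraries 1 and 2, an omission chosen after the data were seen, the difference of the sums was 0.04. Without TMM factors the sums were 66661, 65751, 57776 and 63400 CPM in liver KO libraries. In flox libraries they were then 59332, 62408, 51982 and 57853 CPM, and the groups overlapped. Summed epididymis transcripts were lower in the liver KO, at 188, 271, 497 and 157 CPM, against 641, 662, 799.8 and 619.9 CPM in flox libraries. Sperm and spermatid transcripts were at 557, 650.4, 588 and 585 CPM in liver KO libraries and 539, 593, 437 and 571 CPM in flox libraries. Their part in the result was not tested; with the epididymis level as a covariate, 17 of 21 members were lower, with a median of -0.51 and 0 called. The miR-34 and miR-449 family was higher in 5 of 5 tested members (median 0.36) and other X-linked miRNAs in 12 of 19 (median 0.37), with 0 called in either list.

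The alcohol response of Nrf2-/- sperm was set against that of WT sperm, taken over the 3 doses, in a fit of the 20 libraries. The difference of log2 changes, Nrf2-/- minus WT, was below 0 for 19 of 25 members tested and above 0 for 6, with a median of -0.84, while 50.5% of all 370 miRNAs were below 0 and their median was -0.03. Only 15 members passed the low-count filter in the Nrf2-/- set by itself, so others of the 25 entered through their WT counts. Members outside those 15 averaged at most 2.91 CPM in Nrf2-/- sperm. The count of directions and the median hold them too, and are not read as a result about the cluster. By edgeR it was -2.74 ± 1.05 (SE; unadjusted p = 0.0176, adjusted p = 0.583) for miR-743a-3p and -2.69 ± 0.96 (SE; unadjusted p = 0.0121, adjusted p = 0.583) for miR-878-3p. miR-741-3p was at -1.53 ± 0.83 (SE; unadjusted p = 0.082, adjusted p = 0.788) and miR-743b-3p at -1.16 ± 0.73 (SE; unadjusted p = 0.132, adjusted p = 0.788) in the same edgeR fit. edgeR called 0 members and 0% of all miRNAs. In the fit over all 20 libraries, 3 of the 18 members without gaps had an unadjusted p under 0.05, against 5.14% of all miRNAs, and DESeq2 called none of the 18 and 0.271% of all. The 3 were miR-743a-3p, miR-878-3p and the minor arm miR-743a-5p. That arm had 0 reads in all 4 Nrf2-/- controls and at most 2 in an ethanol library, so its fitted difference depends on the prior count and is not given. The value of miR-878-3p ran from -3.07, without WT control 2, to -1.63, without Nrf2-/- control 3. That Nrf2-/- control was the highest library of its set for miR-878-3p, at 117 CPM against a set mean of 32.4 CPM.

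The fourth member with an unadjusted p under 0.05, and the nearest to the threshold, was miR-465-5p, at -1.95 ± 0.58 (SE; unadjusted p = 0.00527, adjusted p = 0.0559) by edgeR in a fit without its 4 gap libraries. Those were WT control 3, Nrf2-/- controls 1 and 2 and Nrf2-/- ethanol 4. The only Nrf2-/- controls left were thus 3 and 4, and for this member the part of those 2 libraries could not be checked. In that fit edgeR called 7.49% of 347 miRNAs, 28% had an unadjusted p under 0.05, and DESeq2 called 20.8%, miR-465-5p among them. It passed the threshold, by edgeR with Benjamini-Hochberg adjustment, without WT control 2 (-2.21, adjusted p = 0.0363) and without Nrf2-/- ethanol 3 (-2.36, adjusted p = 0.028). The share of all miRNAs called in those fits was not counted. The interaction turned on the same Nrf2-/- controls as the comparison within that set. Without controls 3 and 4 the median of 24 members was -0.04 and miR-743a-3p was at 0.52, and without controls 1 and 2 edgeR called miR-741-3p, miR-743a-3p and miR-878-3p. The share of all miRNAs called without controls 1 and 2 was not counted, so these calls are not read as particular to the cluster.

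miR-743a-3p, which had no gap in any table, was set against the summed epididymis and sperm transcripts of each library, as deviations of log2 values from group means with labels permuted within groups. This relation was chosen after the data were seen. It was computed 8 times, for 2 marker lists over each set and over all sets pooled; the Nrf2-/- libraries fell into separate sets, so the relations that hold them are not given, and the other 4 were adjusted together. Over the 12 WT libraries the epididymis level gave Pearson's r = -0.81 (permutation p = 0.0636, adjusted p = 0.255) and Spearman's rho = -0.80 (permutation p = 0.0762, adjusted p = 0.305), and r was -0.70 without the 2 libraries farthest from the median. Over the 8 liver KO and flox libraries it gave Pearson's r = -0.22 (permutation p = 0.86, adjusted p = 0.86) and Spearman's rho = 0 (permutation p = 1, adjusted p = 1), and r was -0.38 without the 2 farthest libraries. The sperm level gave Pearson's r = -0.15 (permutation p = 0.621, adjusted p = 0.827) and Spearman's rho = -0.10 (permutation p = 0.707, adjusted p = 0.942) over the WT libraries, with r at 0.14 without the 2 farthest. Over the liver KO and flox libraries it gave Pearson's r = 0.24 (permutation p = 0.482, adjusted p = 0.827) and Spearman's rho = 0.21 (permutation p = 0.656, adjusted p = 0.942), with r at 0.04 without the 2 farthest. None of the 4 relations passed an adjusted p of 0.05.

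**Figure D4:**
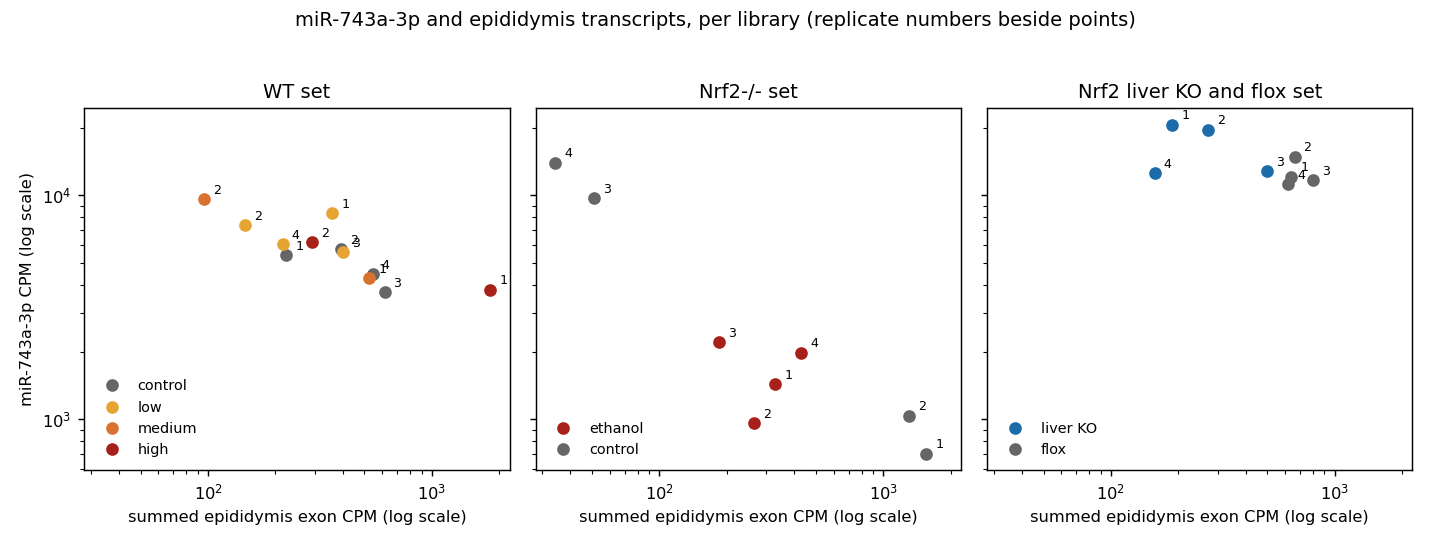
miR-743a-3p CPM against the summed exon CPM of the epididymis list (both log scales) for each library, with replicate numbers beside the points. Nrf2-/- controls 3 and 4 have the lowest epididymis levels, 50.99 and 34.1 CPM, and the highest miR-743a-3p levels of their set; controls 1 and 2 have the highest epididymis levels of that set.

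Some hairpins had the same dominant arm in all 3 sets, and others did not. The 5p arm of miR-743a held at most 0.176% of the counts of both arms in any library with 20 or more, and that of miR-470 at least 91.6%. For miR-871, the 5p share was 98.2% to 100% in Nrf2-/- libraries, 3.59% to 28.2% in liver KO and flox libraries and 38.6% to 82.0% in WT libraries. miR-883a had 95.1% to 100% in Nrf2-/- libraries, 14.9% to 33.2% in liver KO and flox libraries and 2.7% to 10.1% in WT libraries. These ranges of miR-871 and miR-883a did not overlap between the 3 sets, and were not tested: genotype and table differ together here and cannot be told apart. For miR-463 the ranges of 24.4% to 78.5% in liver KO and flox libraries and 83.9% to 94.4% in WT libraries did not overlap either. Arm shares of hairpins outside the cluster were not computed. How common such separation between sets is among all miRNA hairpins is therefore not known here.

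**Figure D5:**
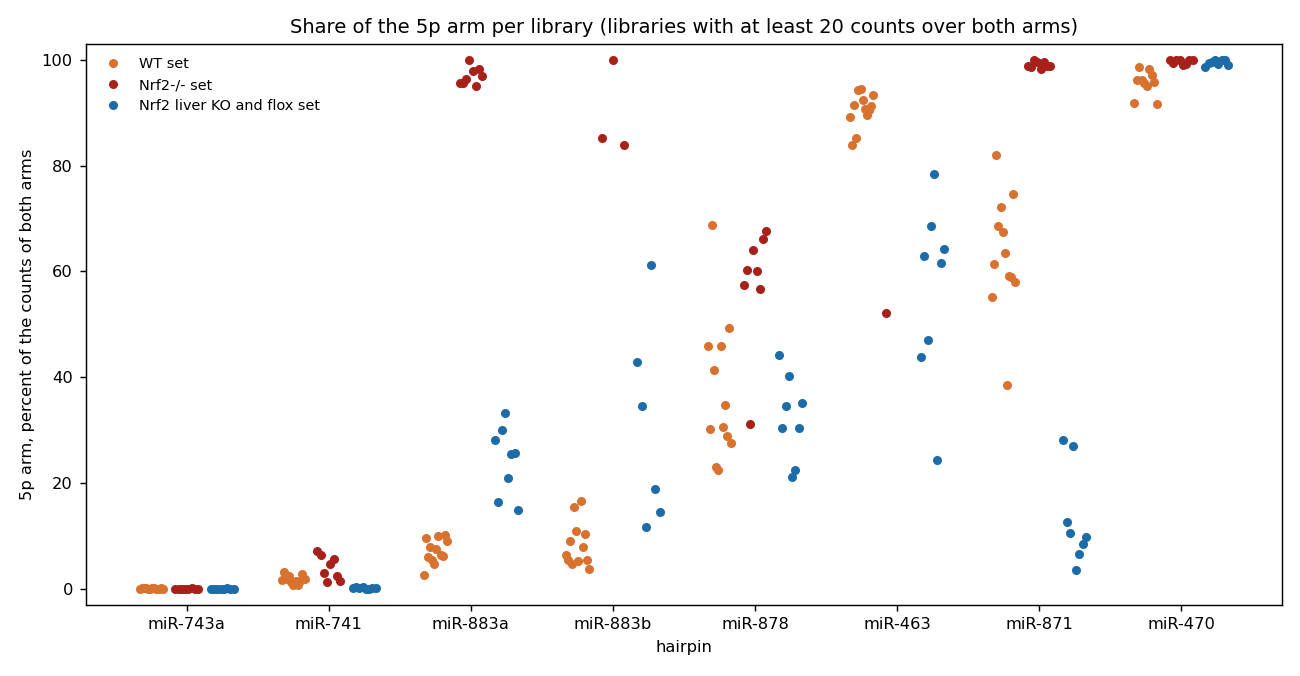
Percent of the counts of both arms that fell on the 5p arm, per library, for 8 hairpins and 3 sets of libraries (libraries with under 20 counts over both arms or a gap are not drawn). miR-743a and miR-470 keep the same dominant arm in all 3 sets, and miR-871 and miR-883a take different ranges in each set.

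Within sets, 25 differences in arm share or copy ratio between groups of 3 or 4 libraries were tested after the data were seen, by exact two-sided permutation tests adjusted together, and none passed an adjusted p of 0.05. With 4 libraries against 4 the smallest p is 0.0286. Adjusted over the 25 tests that p became 0.238 here, and it could fall under 0.05 only if most of the tests reached it. That none passed is therefore not read as a lack of difference. The 5p share of miR-871 was 3.59, 6.58, 8.41 and 9.85% in liver KO libraries, against 28.2, 12.6, 10.6 and 27.1% in flox libraries (exact permutation p = 0.0286, adjusted p = 0.238). All 4 liver KO libraries were thus below all 4 flox libraries. The 5p share of miR-741 was 0.0441, 0, 0.188 and 0.173% in liver KO libraries, against 0.213, 0.299, 0.262 and 0.441% in flox libraries (exact permutation p = 0.0286, adjusted p = 0.238). In WT sperm it was 1.35, 0.818, 1.55 and 0.699% at the low dose, against 1.71, 3.21, 1.85 and 2.51% in controls (exact permutation p = 0.0286, adjusted p = 0.238). The groups of both pairs did not overlap, and the minor arm rests on few reads, 115 in all liver KO and flox libraries and 659 in all WT libraries.

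The balance of the paralogs miR-743a-3p and miR-743b-3p also differed by set. Their count ratio was 12.8, 13.0, 16.1 and 36.0 in Nrf2-/- ethanol libraries and 9.6, 13.8, 32.1 and 76.5 in Nrf2-/- controls. It was 3.19, 3.68, 2.4 and 2.2 in liver KO libraries and 1.43, 2.31, 2.11 and 1.75 in flox libraries (exact permutation p = 0.0571, adjusted p = 0.238 on the log2 ratio). It was 1.48, 1.98, 1.15 and 1.41 at the low dose, 1.2 and 2.47 at the medium dose, 1.55 and 1.56 at the high dose and 1.08, 1.37, 1.48 and 1.44 in WT controls (exact permutation p = 0.4, adjusted p = 0.625 for low dose against control). Every Nrf2-/- library was therefore above every library of the other sets, again with genotype and table together. Ratios of paralogs outside the cluster were not computed. Within miR-465-5p, the miR-465b-5p row held 1.39% to 2.19% of the counts in the 5 Nrf2-/- libraries without a gap, 12.6% to 19.99% in liver KO and flox libraries and 18.4% to 25.3% in WT libraries. miR-465c-5p, which has C at base 13 where miR-465b-5p has U, was the main row in all 24 of these libraries, with 57.5% to 88.6%.

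miR-881 was counted under several names. The miRNA row mir-881, which names no arm, was present in the WT and Nrf2-/- tables, while the liver KO and flox table had miR-881-3p at 146, 43.2, 111 and 217 CPM in liver KO libraries, against 79.1, 121, 92.3 and 216 in flox libraries. In WT libraries miR-881-3p held only 43.5 to 102.62 CPM beside mir-881, with high 1 missing, and in Nrf2-/- libraries at most 0.624 CPM. The tables also hold a hairpin-class row of the same name, with 10878 counts over the WT libraries, 15640 over the Nrf2-/- libraries and 1715 over the liver KO and flox libraries. Which arm the miRNA row mir-881 holds cannot be told from its name.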

How the data were processed

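Mouse sperm small RNA was read in 28 libraries of 8 groups. The deposited values are raw counts per annotated feature in 3 tables, from Trizol RNA and Qiaseq libraries per the labels; aligner, counter, build and how reads with several matches were counted are not given in the sources used here. The cluster members and the comparison lists were chosen with earlier results of these data known. miRNA rows were taken from each table, the miR-465a to miR-465d copies were summed per arm, and a count of 0 where over 50 reads were expected was set to missing, provided at least 3 libraries were above 0.

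CPM used the miRNA count times its TMM factor as library size. miRNAs kept by edgeR's filter on low counts were tested with edgeR 4.0.16 (quasi-likelihood, R 4.3.3), with Benjamini-Hochberg adjustment over all miRNAs tested and a threshold of 0.05; the SE is the log2 change divided by the square root of F. DESeq2 1.42.0 was an alternative. The scripts were tested on simulated data. Members were given in every library if among the 10 with the highest mean CPM of a table or past the threshold, and others by ranges. Log2 changes were given for the most abundant members and for the lowest p-values or most extreme changes, except where they depend on the prior count. Exact permutation tests used scipy 1.17.1 on arm shares with at least 20 counts over both arms. The low counts behind minor arms limit their precision, and PCR duplicates are not told apart here.

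The labels give the same replicate numbers in each group. In the Nrf2-/- set, deviations from group means of libraries with the same number correlated at 0.20, 0.11, 0.24 and 0.13, all over the limit of 0.1 set for pairing. The labels do not say what a number stands for, and 3 of the 4 numbers correlated best with another number (1 with 2, 2 with 1, 3 with 4), so the pairing is uncertain. All values given are from fits and tests without a block; the fit with the replicate number as a block was an alternative. Other alternatives were the scaling, the filter, the treatment of gaps and of miR-465 copies, the threshold, each library left out in turn, and, chosen after the data were seen, an epididymis covariate, pairs of libraries left out and the highest miR-465 copy.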

Additional observations from a re-analysis of the deposited data

Results flagged for a closer look

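The 3 values below lay farther from the rest of their group than Dixon's criterion allows, which chance meets in about 1 in 20 groups. The number of groups screened is not given here, so the 3 cannot be set against that rate. The summed cluster level of flox 2 was 64893 CPM, above the other flox libraries. In the same library miR-465-3p was 25819.8 CPM, also the highest of the flox group. It is part of that sum, so the 2 values are not separate. miR-871-5p was 382 CPM in Nrf2-/- ethanol 3, the highest of its group.

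The row mir-881 was above its control mean in all 8 WT alcohol libraries and below its control mean in all 4 Nrf2-/- ethanol libraries. The edgeR difference of log2 changes, Nrf2-/- minus WT, was -1.85 (unadjusted p = 0.251, Benjamini-Hochberg adjusted p = 0.894), so it did not pass the test. The pattern rests on WT control 4, with a single read (0.463 CPM): high 1 (1081 CPM) and high 2 (1139 CPM) lie below the mean of WT controls 1 and 2 alone (1161 CPM). In the hairpin-class row of the same name high 1 was at 627 CPM, below the control mean of 672 CPM. The interaction estimate ran from -2.80 without WT control 2 to -1.11 without Nrf2-/- control 4.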

How the results depend on the processing

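No member was called in any of the 5 comparisons with RLE scaling, without TMM factors, without the filter on low counts, or with the replicate block. Under the block the Nrf2-/- median log2 change was -0.55 with 14 of 14 members lower and 0 called, and the block changed no call in the other comparisons. In WT and liver KO libraries the numbers did not pair the samples (correlations -0.14 to 0.11 and -0.32 to 0.40).

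DESeq2 called 1 member in the Nrf2-/- comparison and 1 in the interaction, and a threshold of 0.1 called 1 in the interaction, miR-465-5p in each case. Leaving out Nrf2-/- controls 1 and 2 called 1 member in the Nrf2-/- comparison and 3 in the interaction, and moved the summed level to -2.16. Leaving out controls 3 and 4 moved it to 0.66. The share of all miRNAs called in these fits was not counted. Without controls 3 and 4 the sign turned for miR-741-3p (0.78), miR-743a-3p (1.01), miR-871-5p (0.37) and mir-881 (0.90) in Nrf2-/- sperm, and for miR-741-3p (0.13), miR-743a-3p (0.52), miR-743b-3p (0.26) and mir-881 (0.016) in the interaction. The summed level was 0.089 at the low dose without TMM factors, -0.82 at the medium and high doses with gaps kept as 0, and 0.039 in the liver KO without KO libraries 1 and 2.

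Without TMM factors the sign also turned for miR-743b-3p at the low dose (-0.072), for miR-743a-3p (-0.067) and miR-465-5p (-0.083) at the medium and high doses, and for miR-741-3p in the liver KO (-0.12). At the medium and high doses miR-743b-3p turned to 0.072 without the filter, 0.20 with gap miRNAs removed, 0.044 with copies one by one, 0.0077 with only the groups compared and 0.064 with the highest copy. With the epididymis covariate the sign turned for miR-465-5p in Nrf2-/- sperm (0.25) and for miR-741-3p (-0.28) and miR-878-3p (-0.040) in the liver KO. The cause of these turns was not tested.

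With each library left out in turn, the interaction called 0 to 1 members. At the medium and high doses miR-741-3p ran from -0.041 to 0.77, miR-743b-3p from -0.28 to 0.16 and the summed level from -0.09 to 0.35. In Nrf2-/- sperm miR-463-5p ran from -0.44 to 0.017, miR-741-3p from -1.08 to 0.15 and the summed level from -1.29 to -0.19. In the liver KO miR-741-3p ran from -0.019 to 0.19.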
